A study of Homo sapiens with 28 samples.

Results

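H3K27me3 outside protein-coding genes was compared between WT and TKO cells, where WT cells are TKO cells that express wild type NSD2. Within 500 kb of a coding gene, its largest stretches of extra cover in WT lay nearest to HOXC4, CBX5, GRAP and RBBP8NL. Those of TKO lay nearest to TPTE, SCGB1C1, LOC124900996 and OR4F5, where each of the 12 lists of the series had a peak, as also at HOXC4 and CBX5. The stretches of HOXC4, TPTE, SCGB1C1 and OR4F5 were under the 1.5-fold limit for a call. Those of RBBP8NL and TPTE turned direction under an alternative setting. Domains without any H3K36me2 were more often covered further in WT. Their counts were almost equal when peaks over wider gaps were joined, and few were called under a stricter limit on peaks. Domains with H3K36me2 were more often covered further in TKO. That direction turned at a stricter limit on peaks, which asked for less depth-scaled height in WT than in TKO. It held at a limit on depth-scaled height that was the same in both lists. At places with a peak in both lists the depth-scaled height hardly differed. Those places had to pass the limit of both lists, and the ratio moves with the depth scaling. Equal amounts of mark are therefore not shown. The members are the H3K27me3 peaks on chromosomes 1 to 22 that touch no protein-coding gene body by 1 bp, outside the blocks described with the depths. They number 49467, of 912054 autosomal peaks in the 12 lists of the series. WT contributed 22874 of its 55232 autosomal H3K27me3 peaks and TKO 26593 of its 61259.

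The cells derive from KMS-11, a multiple myeloma line, and are labelled as plasma cells. TKO is labelled KMS-11 WHSC1(+/-), with WHSC1 an older name of NSD2. The conditions are TKO cells with wild type NSD2 (WT), with the D1240A form, with the F1295A form, and TKO cells alone, so the WHSC1(+/-) genotype is common to all of them. The labels do not say how the NSD2 forms were delivered, at what level they are made, or whether a line is a single clone. The design text asks how mutant NSD2 may change chromatin marks.

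H3K27me3 is placed by Polycomb repressive complex 2, in which EZH2 or EZH1 is the enzyme and EED and SUZ12 are core subunits. It marks silent developmental regulator genes and lies as broad, low signal over much silent chromatin between genes. NSD2 places H3K36me2, also largely between genes and over gene bodies. H3K36 methylation is known to hinder Polycomb repressive complex 2 on the same histone tail, so both marks are commonly read side by side. KMS-11 carries the t(4;14) translocation, which drives NSD2 in myeloma.

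Chromatin was fixed, sonicated, precipitated and then tagged by a transposase on the beads (ChIPmentation). Each list was called on both replicates of a condition together, so there is 1 list per condition and mark, no replicate error and no significance test, and each value below is a description of these lists. The H3K27me3 lists rest on 44812488 kept fragments in WT and 41788534 in TKO, after 82% of the fragments in each were set aside as duplicates. D1240A and F1295A had fewer, 33219802 and 31097592. Left out were 93 of 2886 autosomal blocks of 1 Mb, in which none of the 12 lists covered under 10%. H3K27ac, which marks active promoters and enhancers, had a peak within 1 kb of an end of 8 of 10 plasma cell marker genes in both WT and TKO, with CD38 and SDC1 without one. The same held for 4 of 8 B cell, 1 of 6 T and NK cell and 1 of 5 myeloid markers in both. NSD2 itself had such a peak in both, which does not check the labels, since peaks do not measure its protein. The H3K36me2 list was the smaller one in WT, with 71039 autosomal peaks over 72.1 Mb from 62550152 kept fragments, against 118368 peaks over 93.8 Mb from 69008405 kept fragments in TKO. It covered fewer bases in WT on 20 of 22 autosomes, although NSD2 places this mark and WT is the condition labelled as expressing it. This goes beside each result on H3K36me2 below.

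Some of the marked stretches hold the starts of non-coding RNA genes. The windows below run from 250 bases before to 50 bases after the start of 4 such genes and are shown because each lies in a domain named further down, at least 50% under a WT peak and with no base under a TKO peak. They are RefSeq sequence of GRCh38 patch 14, 5′ to 3′ on the strand of the gene, with each CG in capitals.
LOC100240734 (chr12:54101959-54102258, plus strand): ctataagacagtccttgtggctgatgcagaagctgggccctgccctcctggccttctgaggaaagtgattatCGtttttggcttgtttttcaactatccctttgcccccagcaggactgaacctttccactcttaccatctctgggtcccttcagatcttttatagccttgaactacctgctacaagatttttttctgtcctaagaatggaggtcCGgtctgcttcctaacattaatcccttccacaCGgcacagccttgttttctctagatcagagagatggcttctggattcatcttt
LINC02381 (chr12:54125821-54126120, plus strand): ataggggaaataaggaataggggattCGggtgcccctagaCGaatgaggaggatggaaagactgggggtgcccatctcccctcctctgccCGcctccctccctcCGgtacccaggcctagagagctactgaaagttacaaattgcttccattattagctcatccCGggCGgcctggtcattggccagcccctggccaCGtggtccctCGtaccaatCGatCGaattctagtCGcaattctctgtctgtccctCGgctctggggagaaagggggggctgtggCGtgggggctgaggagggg
LOC105376413 (chr10:11705640-11705939, minus strand): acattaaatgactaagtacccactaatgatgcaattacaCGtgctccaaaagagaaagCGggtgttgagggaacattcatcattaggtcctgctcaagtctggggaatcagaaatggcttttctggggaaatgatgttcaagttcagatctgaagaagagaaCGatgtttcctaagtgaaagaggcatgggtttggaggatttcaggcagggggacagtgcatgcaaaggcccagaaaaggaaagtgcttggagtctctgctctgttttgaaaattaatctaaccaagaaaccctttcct
LOC105372718 (chr20:63027707-63028006, minus strand): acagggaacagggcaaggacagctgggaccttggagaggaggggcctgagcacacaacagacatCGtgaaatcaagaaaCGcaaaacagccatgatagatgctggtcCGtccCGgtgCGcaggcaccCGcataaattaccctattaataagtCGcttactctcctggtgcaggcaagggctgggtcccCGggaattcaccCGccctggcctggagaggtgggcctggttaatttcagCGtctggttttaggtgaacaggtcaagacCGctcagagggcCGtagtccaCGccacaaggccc
The first pair lies in the domain beside HOXC4, the next in that beside ECHDC3 and the last in that beside BHLHE23. WT peaks covered the windows of LOC100240734 and LOC105376413 whole, with pileups of 14 and 23 fragments, that of LINC02381 by 77.3% with a pileup of 22, and that of LOC105372718 by 71.0% with a pileup of 19. In the domain beside HOXC4, TKO peaks ended close to both windows. The WT peak over the LINC02381 window overlapped a TKO peak with a pileup of 20. That over the LOC100240734 window overlapped TKO peaks on either side, with pileups of 18 and 21. These windows are thus not stretches without H3K27me3 peaks nearby in TKO. The windows of LINC02381 and LOC105372718 hold 13 CG each, and those of LOC100240734 and LOC105376413 hold 3 each. The median over all 33558 autosomal windows was 14 CG, and over the 12545 windows of genes that are not protein-coding it was 5 CG. Of all windows, 41 were covered by at least 50% in WT with no base in TKO (median 2 CG), 18 were covered in TKO with no base in WT (median 3 CG), and 27 were covered in both (median 4 CG).

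Peaks outside genes covered 14.3 Mb in WT and 16.0 Mb in TKO, a ratio of 0.893. For peaks that touch a gene the ratio was 0.920. WT had fewer peaks, at 0.860 times the number in TKO. A peak had a median length of 397 bp in WT and 389 bp in TKO. The pileup, which is the number of fragments over the summit, had a median of 18 in WT and 16 in TKO. Scaled to 10000000 kept fragments, which is called the scaled pileup here, these are 4.02 in WT and 3.83 in TKO, not far above the lowest pileup a peak could have, 2.68 in WT and 2.63 in TKO. Most of the members are therefore weak peaks. Peaks of 1 kb or longer numbered 2767 in WT and 2907 in TKO. The smaller number and cover in WT depend on the limit put on a peak. When −log10 q had to reach 5, the covered length in WT was 1.06 times that in TKO. That limit asked for a scaled pileup of at least 4.02 in WT and 4.31 in TKO. With the same minimum scaled pileup of 5 in both lists the ratio was 0.915.

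H3K27me3 between genes formed runs of peaks. Joining peaks at most 3 kb apart gave 13608 domains in WT and 16489 in TKO. Domains of at least 5 peaks numbered 592 in WT, with 25.2% of its peaks and 35.6% of its bases, and 627 in TKO, with 23.3% of its peaks and 33.7% of its bases. For the comparison the peaks of both lists were joined together, which gave 1611 domains of at least 5 kb. A domain was called where one list covered at least 1.5 times the bases of the other. WT covered more in 270 of them, 16.8% against 20% of all autosomal domains built the same way from every peak. TKO covered more in 379, 23.5% against 23.7%. Both shares are at or below those of the whole table. Among the 1611 domains, 12 were listed at 0 in TKO and 39 at 0 in WT. The direction of this balance is not stable: it was 302 against 268 domains when both lists were reduced to their highest peaks of equal covered length, and 128 against 78 at a −log10 q of at least 5, but remained with more domains in TKO at a minimum scaled pileup of 5, where there were 0.573 domains higher in WT for each one lower.

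**Figure D1:**
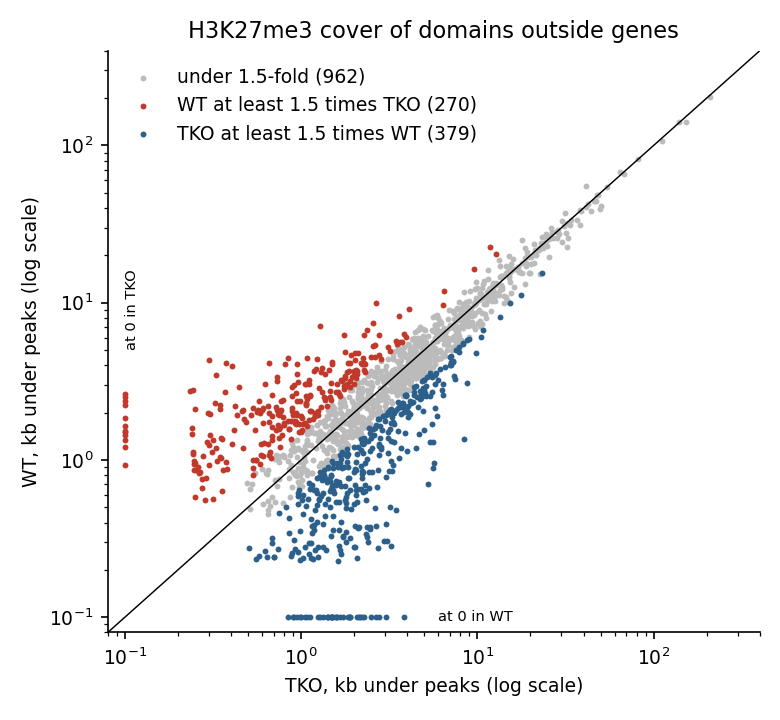
Kilobases under H3K27me3 peaks in WT (vertical, log scale) and in TKO (horizontal, log scale) for the 1611 domains of at least 5 kb outside genes, with the line of equal cover. Red points (270) have at least 1.5 times more in WT and blue points (379) at least 1.5 times more in TKO. The 12 domains listed at 0 in TKO and the 39 listed at 0 in WT are drawn at 0.1 kb. Domains with more than 100 kb under peaks lie close to the line.

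The domains divided by their H3K36me2, a mark that had no part in choosing them apart from its part in the blocks left out. No base of 259 domains was under an H3K36me2 peak in WT or TKO. Of these, WT covered more in 124 (47.9%) and TKO in 61 (23.6%), with 0.510 Mb of H3K27me3 in WT and 0.355 Mb in TKO. The median difference was 6.60 percentage points of the domain's length in favour of WT. In the 689 domains with some H3K36me2 but under 20% of their length, as the mean of WT and TKO, WT covered more in 127 and TKO in 206. In the 663 domains with at least 20%, WT covered more in 19 (2.87%) and TKO in 112 (16.9%), and the median difference, WT minus TKO, was -4.08 points. This division was made after the values were seen. It also follows strength and place: the median highest pileup was 19 in WT and 17 in TKO in the class without H3K36me2, against 31 in WT and 30 in TKO in the class with at least 20%, and the median distance to a coding gene was 16.8 kb in the class without H3K36me2 and 94.7 kb in that with at least 20%. Whether pileup or place has a part in the division was not tested.

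**Figure D2:**
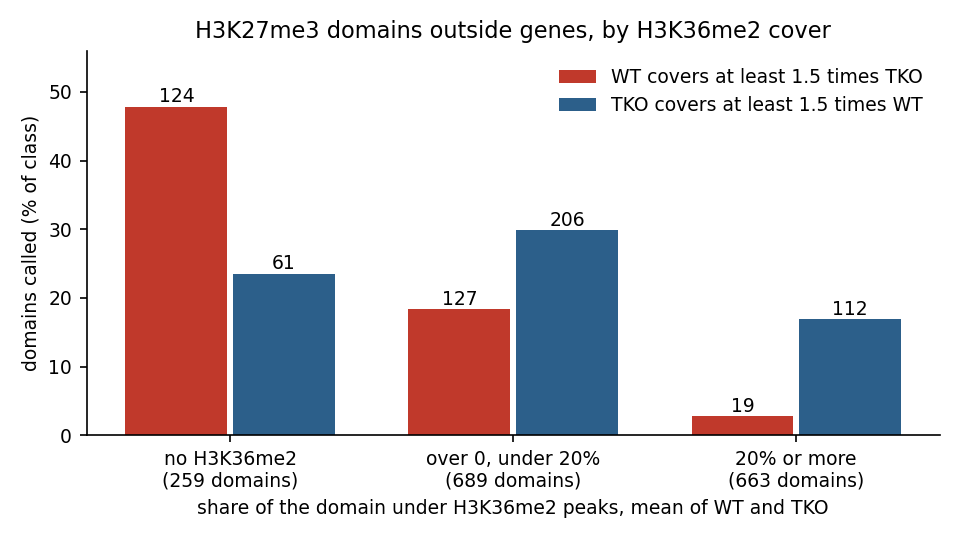
Percent of domains in each H3K36me2 class in which WT covers at least 1.5 times the bases of TKO (red) and in which TKO covers at least 1.5 times those of WT (blue), with the number of domains above each bar. Without H3K36me2 the red bar is the taller one (124 and 61 domains), and with H3K36me2 the blue one is (127 and 206, and 19 and 112).

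In the class without H3K36me2 more domains were higher than lower in WT under each alternative tried, but a domain gap of 10 kb left the counts equal within 1 domain, with 323 domains higher in WT and 322 lower. A gap of 1 kb left 16 higher and 2 lower, and a −log10 q of at least 5 left 26 higher and 1 lower. At a minimum scaled pileup of 5, 6 were higher and 1 lower, so the result rests on peaks of low pileup. For the domains with H3K36me2 the counts were 146 higher and 318 lower, and this direction turned at a −log10 q of at least 5, with 102 higher and 77 lower. At a minimum scaled pileup of 5 it was 45 higher and 88 lower.

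The lists of the mutant forms were not used to call these domains, apart from their part in the blocks left out. In the 270 domains higher in WT the median share of the domain under H3K27me3 was 29.6% in WT, 8.67% in D1240A, 9.46% in F1295A and 11.2% in TKO. In the 379 lower ones it was 10.9% in WT, 10.2% in D1240A, 7.76% in F1295A and 27.9% in TKO. Both mutant lists sat near the emptier of the other lists in either set, though each set was chosen for the gap between WT and TKO. In the class without H3K36me2 the domains held 0.510 Mb in WT, 0.197 Mb in D1240A, 0.234 Mb in F1295A and 0.355 Mb in TKO. D1240A and F1295A have fewer kept fragments and fewer peaks, and what part that has in their low cover was not tested. Other marks differed between the sets as well. A peak of H3K36me2 lay in 44.1% of the higher domains in WT and 41.5% in TKO, and in 80.5% of the lower domains in WT and 71.8% in TKO. For H3K27ac these shares were 23.3% in WT and 25.9% in TKO of the higher domains, and 48.8% in WT and 44.6% in TKO of the lower ones.

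Among domains within 500 kb of a coding gene, that with the largest excess of bases in WT begins 100 bp from HOXC4, a homeobox gene of the HOXC cluster, at chr12:54056131-54157712. Its peaks covered 55298 bp in WT, 29885 bp in D1240A, 33584 bp in F1295A and 41173 bp in TKO. As a share of the 101582 bp domain this was 54.4% in WT, 29.4% in D1240A, 33.1% in F1295A and 40.5% in TKO. WT had 56 peaks with a highest pileup of 34 fragments (exact Poisson 95% interval 23.5 to 47.5), and TKO had 51 peaks with a highest pileup of 30 (20.2 to 42.8). The pileups thus overlap within counting error, and the ratio of covered bases, 1.34, is below the limit for a call. H3K36me2 covered 5.78% of it in WT and 4.76% in TKO.

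**Figure D3:**
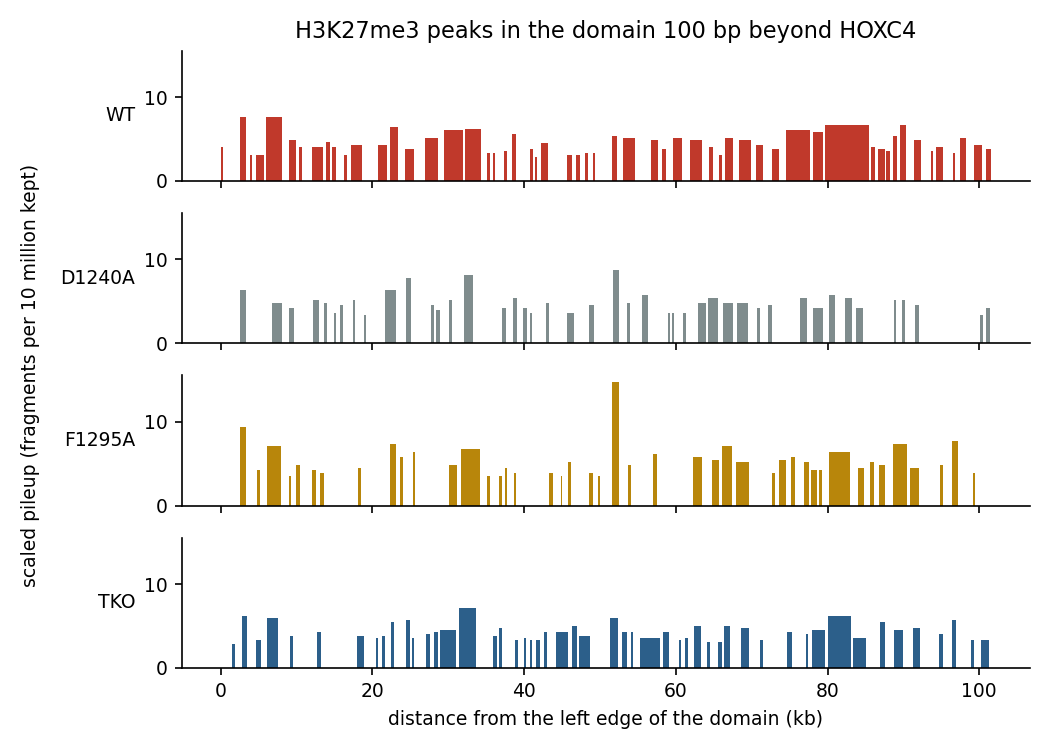
H3K27me3 peaks in the domain beside HOXC4 in WT, D1240A, F1295A and TKO, from top to bottom, each bar 1 peak, its width the length of the peak in kb from the left edge of the domain and its height the scaled pileup. Peaks run along the whole 101.6 kb in all 4 lists and fill 54.4% of it in WT, 29.4% in D1240A, 33.1% in F1295A and 40.5% in TKO.

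Further along the same arm, 552 bp from CBX5, which encodes a heterochromatin protein that reads H3K9 methylation, WT peaks covered 22437 bp and TKO peaks 11743 bp of chr12:54189603-54230389, a ratio of 1.91. D1240A covered 9736 bp there and F1295A 12561 bp. This domain also carried H3K27ac over 20.3% of its length in WT and 18.5% in TKO. On chromosome 17, 14047 bp from GRAP, an adaptor gene of Ras signalling, WT covered 20402 bp and TKO 12805 bp of chr17:19065421-19110632. No H3K36me2 lay there in WT, and 0.843% was covered in TKO.

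RBBP8NL, at 1733 bp from chr20:62429273-62449687, showed one of the wider gaps in a domain free of both H3K36me2 and H3K27ac. There WT had 10 peaks over 9984 bp and TKO 6 peaks over 2648 bp, with 2332 bp in D1240A and 7047 bp in F1295A. The highest pileups were 22 in WT and 21 in TKO, so the gap is one of length and number of peaks, not of height. At a minimum scaled pileup of 5 WT had no base left and TKO had 536 bp, so the direction turned. BHLHE23, a helix-loop-helix transcription factor gene on the same chromosome arm, stood 6423 bp from chr20:63013388-63038188, with 7390 bp covered in WT and 2555 bp in TKO. D1240A with 3807 bp and F1295A with 4031 bp lay between these.

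Beside ADORA1, an adenosine receptor gene, chr1:203107688-203127544 had 12 peaks over 7120 bp in WT and 3 peaks over 1272 bp in TKO, a ratio of 5.60. D1240A with 994 bp and F1295A with 968 bp were both below TKO. At 761 bp from MYOG, the muscle regulator next along the chromosome, chr1:203086774-203102807 had 3831 bp covered in WT and 1305 bp in TKO. No H3K36me2 lay in the MYOG domain in WT or TKO. ECHDC3, which encodes a mitochondrial protein of the enoyl-CoA hydratase family, stood 6754 bp from chr10:11701291-11735627, with 16290 bp in WT and 9554 bp in TKO. MCFD2, part of a cargo receptor for coagulation factors, stood 13740 bp from chr2:46870950-46888129, with 9154 bp in WT and 4066 bp in TKO. This was the strongest of the 8 domains named for WT, with a highest pileup of 67 (51.9 to 85.1) in WT and 40 (28.6 to 54.5) in TKO.

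The 8 domains named for TKO each had a peak in all 12 lists, as did those of HOXC4 and CBX5 among the 8 named for WT, where the other 6 had one in 4 to 10 lists. The largest of TKO, 28995 bp from the multi-copy testis gene TPTE at chr21:10415085-10492587, had 39367 bp covered in WT and 49584 bp in TKO, with H3K36me2 over 62.1% in WT and 61.6% in TKO. H3K27ac covered 54.4% of the TPTE domain in WT and 52.1% in TKO. Without the peaks found in all 12 lists the TPTE domain held 13781 bp in WT and 13690 bp in TKO, so its direction turned. The lists were called with no control. How far the cover of the 8 domains named for TKO reflects each mark was not tested. The domain 70569 bp from SCGB1C1, a secretoglobin gene near the tip of chromosome 11, had 22608 bp in WT and 32400 bp in TKO. The domain 20357 bp from the olfactory receptor gene OR4F5, near the tip of chromosome 1, had 15127 bp in WT and 22671 bp in TKO, and that near OR4F17 on chromosome 19 had 31363 bp in WT and 38443 bp in TKO.

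Beside a pair of uncharacterised genes on chromosome 5 the domains were called lower. Near LOC124900996 the cover was 15468 bp in WT and 23256 bp in TKO, and near LOC124900997 it was 11216 bp in WT and 17614 bp in TKO. The domain of LOC124900996 also carried H3K36me2 over 67.8% in WT and 76.2% in TKO. H3K27ac covered 21.7% of it in WT and 30.1% in TKO. A domain 158070 bp from CACNA1B, a neuronal calcium channel gene at the end of chromosome 9, had 25714 bp in WT and 32774 bp in TKO. This domain and those of TPTE, SCGB1C1, OR4F5 and OR4F17 were under the limit for a call. The clearest domain of TKO stood 5939 bp from CSF1, the gene of the macrophage growth factor, at chr1:109885228-109904566. It had 4 peaks over 1367 bp in WT, 2422 bp in D1240A, 1714 bp in F1295A and 11 peaks over 8394 bp in TKO. WT, D1240A and F1295A were thus all low where TKO was high. H3K36me2 covered 23.8% of this domain in WT and 21.7% in TKO, and its highest H3K27me3 pileups were 19 in WT and 22 in TKO.

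The 5 longest domains differed little. They were 4 beside the centromere of chromosome 3, whose nearest coding gene is PROS1, the gene of the anticoagulant protein S, and 1 on chromosome 14 nearest to OR11H12. The longest, chr3:92331352-92714472, had 204227 bp covered in WT, 191136 bp in D1240A, 203828 bp in F1295A and 208802 bp in TKO. The tallest peak in them, in the domain nearest to PROS1 at 217976 bp, had 11584 fragments in WT and 11281 in TKO. In the domain on chromosome 14 the cover was 81.5% in WT and 80.7% in TKO. H3K36me2 covered 52.7% of the longest domain in WT and 28.9% in TKO, with H3K27me3 over 53.3% in WT and 54.5% in TKO. H3K27ac covered 7.58% of it in WT and 11.3% in TKO. All 5 of these domains had a peak in all 12 lists, which were called with no control. How far this cover reflects each mark was not tested, so nothing is drawn from it on how the marks relate.

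Gene groups were read from the nearest coding gene of the 1299 domains within 500 kb of one, of which 248 were higher in WT and 330 lower, with a median difference, WT minus TKO, of -2.47 points. Developmental transcription factors were nearest to 34 of them, which belong to 16 genes and are not independent of each other, and of which 13 were higher and 8 lower, with a median difference of 5.61 points. Besides BHLHE23 and MYOG the higher ones included DLX4, a homeobox gene, with 4664 bp in WT, 321 bp in D1240A, 1991 bp in F1295A and 1927 bp in TKO. NR5A2, a nuclear receptor gene of liver and pancreas, was nearest to 5 of the 34 domains, 1 higher and 4 lower, so it gave 4 of the 8 lower ones. The higher one, 80128 bp away, had 6328 bp in WT and 3818 bp in TKO, and the lower one with the largest gap, 10238 bp away, had 679 bp in WT and 1767 bp in TKO. Both of these domains turned direction under a stricter peak limit, the first at a scaled pileup of 5 and the second at a −log10 q of at least 5. LMX1A, a homeobox gene of dopamine neurons, had 493 bp in WT and 2638 bp in TKO in a domain listed at 0 in D1240A and F1295A. Near PAX3, the neural crest regulator, it was 1758 bp in WT and 2996 bp in TKO. PAX2, the kidney regulator, had domains in both directions. The lower domain had 0 bp in WT and 1058 bp in TKO, and the higher domain 1426 bp in WT and 683 bp in TKO. Those not called had 3138 bp in WT and 2203 bp in TKO, and 1640 bp in WT and 1559 bp in TKO.

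Neuronal channels and receptors were nearest to 13 domains, 3 higher and none lower. ADRB1, a beta-adrenergic receptor gene, had 2911 bp in WT and 442 bp in TKO at 46953 bp. CHRNA4, a nicotinic receptor gene, had a higher domain on each side, with 3656 bp in WT and 2078 bp in TKO in one, and 2746 bp in WT and 1453 bp in TKO in the other. None of these 3 held H3K36me2 in WT or TKO. Of 5 domains near cell adhesion genes only that of CNTN2, an axonal contactin, was called, with 1970 bp in WT and 306 bp in TKO. Signalling genes of the WNT, BMP, FGF and hedgehog families had 3 domains, of which that of FGF21, a metabolic hormone, was called higher, with 1628 bp in WT and 685 bp in TKO. KRTAP5-3, a keratin-associated gene of a multi-copy family, had 2306 bp in WT and 1070 bp in TKO.

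The lists of B cell, plasma cell, and T and NK cell genes had few domains, and these were all called lower in WT. For B cell genes these were 3 of 3. Near HLA-DRA, a class II antigen presentation gene of a multi-copy family, the cover was 0 bp in WT and 2124 bp in TKO, near CR2, a complement receptor of B cells, 529 bp in WT and 1804 bp in TKO, and near IRF8, a lymphoid and myeloid transcription factor, 960 bp in WT and 1671 bp in TKO. For plasma cell genes they were 2 of 2. Near IRF4, the factor on which myeloma cells depend, it was 3359 bp in WT and 5166 bp in TKO, and near SEC11C, a signal peptidase subunit of the secretory pathway, it was 1211 bp in WT and 2847 bp in TKO. For T and NK cell genes they were 2 of 2. Near GNLY, a cytotoxic granule gene, the cover was 906 bp in WT and 1741 bp in TKO. At 173578 bp from GATA3 it was 239 bp in WT and 1031 bp in TKO. The highest pileup, unscaled, went the other way near IRF4, with 126 in WT and 89 in TKO. It did so for GNLY with 23 in WT and 16 in TKO, and for GATA3 with 21 in WT and 15 in TKO. For IRF8 it was 15 in WT and 14 in TKO, and for CR2 20 in WT and 21 in TKO. For SEC11C it was 15 in WT and 21 in TKO, and for HLA-DRA 16 in TKO with no WT peak. No domain lay nearest to a myeloid gene of the list, which did not hold CSF1. These lists do not hold every gene of blood cells. Outside them, and picked after the values were seen, were domains higher in WT nearest to HBA1, a globin gene of a multi-copy family, with 2222 bp in WT and 0 bp in TKO, CD34, a marker of blood progenitors, with 1864 bp in WT and 785 bp in TKO, and RUNX1, a blood transcription factor, with 1681 bp in WT and 975 bp in TKO. Others outside the lists, picked likewise, were lower in WT. Domains nearest to PTPRC had 0 bp in WT and 1846 bp, 2672 bp and 1573 bp in TKO. A further one of PTPRC was not called, with 880 bp in WT and 850 bp in TKO. Nearest to CD247 it was 0 bp in WT and 3025 bp in TKO, and to FASLG 353 bp in WT and 991 bp in TKO. Counts this small differ by single domains, and GNLY, GATA3 and IRF8 turned direction under at least 1 alternative.

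EED, itself a subunit of the enzyme complex of this mark, was nearest to 4 domains, 3 of them lower in WT. The widest, 31318 bp away at chr11:86195520-86213434, had 4 peaks over 2576 bp in WT, 3124 bp in D1240A, 655 bp in F1295A and 11 peaks over 6388 bp in TKO. The next, 11611 bp away, had 2544 bp in WT and 5079 bp in TKO, and the nearest, 2560 bp away, had 1173 bp in WT and 1809 bp in TKO. All these are weak, with highest pileups between 16 and 22, and at a −log10 q of at least 5 the first pair turned direction. The domains nearest to PICALM, just before those of EED along the chromosome, were all called lower as well. Among them were 884 bp in WT and 5581 bp in TKO, and 1155 bp in WT and 2199 bp in TKO. Lower cover in WT here is thus not particular to EED. MYC, a growth regulator, was nearest to 3 domains, with 1 called, 57453 bp away, at 245 bp in WT and 576 bp in TKO. CDH17, a cadherin gene of the gut, had 0 bp in WT and 1429 bp in TKO. Olfactory receptor genes, a multi-copy family silent outside the nose, had 70 domains, 6 higher and 19 lower. OR6C75 led the higher ones with 2496 bp in WT and 0 bp in TKO, and OR6Y1 the lower ones with 9932 bp in WT and 15237 bp in TKO, a direction that turned at a −log10 q of at least 5 and at a scaled pileup of 5. ZNF genes, zinc finger genes of a multi-copy family, had 21 domains, 5 higher and 7 lower, with ZNF195 at 2621 bp in WT and 0 bp in TKO and ZNF281 at 0 bp in WT and 1884 bp in TKO.

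Where both lists had a peak, its scaled pileup was close to equal. Overlapping peaks of both lists were joined into 35789 loci, of which 12089 were listed in both. At these the median log2 ratio of scaled pileup, WT over TKO, was -0.01, with quartiles of -0.23 and 0.22. Of them 482 (3.99%) were at least 1.5 times higher in WT, against 4.35% over all autosomal loci, and 571 (4.72%) at least 1.5 times lower, against 4.71%. At 2-fold the counts were 33 higher and 53 lower. Among the 353 loci with at least 100 fragments in a list, 10 were higher and 13 lower. These loci needed a peak in both lists, which narrows the gaps that weak ones can show. With a highest pileup under 20, 0.364% were higher and 0.598% lower. From 30 to under 100 it was 7.11% higher and 8.22% lower. Length differed more often: it had a median of 536 bp in WT and 553 bp in TKO, and 1679 loci (13.9%) were at least 1.5 times longer in WT and 2000 (16.5%) at least 1.5 times shorter. Without the division by depth, 921 loci were higher and 342 lower, which shows the weight of the scaling by 44812488 and 41788534 fragments.

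**Figure D4:**
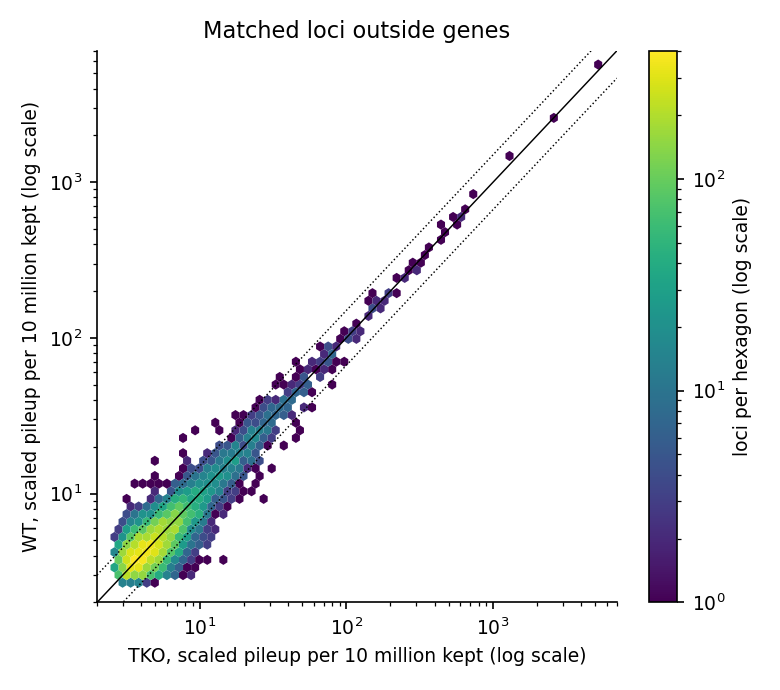
Highest scaled pileup in WT (vertical, log scale) and TKO (horizontal, log scale) at the 12089 loci outside genes listed in both, coloured by the number of loci per hexagon. The solid line is equality and the dotted lines are 1.5-fold. Most loci lie at low pileup around the line, with 482 above the upper and 571 below the lower dotted line.

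The loci that stood farthest out were single peaks. At 86144 bp from ZFP42, a pluripotency factor gene, in chr4:187909264-187909626, WT had 44 fragments (32.0 to 59.1) and TKO 13 (6.92 to 22.2), a ratio of 3.16 in scaled pileup. At 4906 bp from RAB11A, a GTPase of recycling endosomes, it was 71 (55.5 to 89.6) in WT and 21 (13.0 to 32.1) in TKO, with 35 in D1240A and 55 in F1295A. GPR20, an orphan receptor gene, had 103 in WT and 31 in TKO, and EPHB3, an ephrin receptor gene, 54 in WT and 18 in TKO, each at over 20 kb from the gene. A further locus 736034 bp from ZNF37A had 53 in WT and 16 in TKO. These 5 loci were picked as the most extreme of the 12089 in both lists, so the gap between their counts follows from the choice.

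At the other end stood a locus 154795 bp from LOC124907854 on chromosome 2, with 17 fragments (9.90 to 27.2) in WT and 57 (43.2 to 73.9) in TKO. Near PTPRD, a receptor phosphatase gene 795594 bp away, the counts were 44 in WT, 82 in D1240A, 72 in F1295A and 116 in TKO. At 20544 bp from RBFA, a mitochondrial ribosome assembly gene, the counts were 13 in WT and 35 in TKO. At 717096 bp from ADCYAP1, the gene of a neuropeptide, they were 17 in WT and 45 in TKO, and at 17514 bp from KLF10, a zinc finger factor induced by TGF-beta, 14 in WT and 35 in TKO.

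Most loci were in 1 list alone. Those in WT alone numbered 9932 (27.8%, against 29% of all autosomal loci) and those in TKO alone 13768 (38.5%, against 39.2%). As a share of peaks, 56.6% of the WT members and 48.2% of the TKO members overlapped a peak of the other list, against 48.7% in WT and 42.1% in TKO for peaks that touch a gene. The loci in 1 list alone were weak, with a median pileup of 15 in WT and 14 in TKO, and 74.8% of them in WT and 76.9% in TKO were within 1.5 times the list's lowest pileup. With at least 30 fragments there were 63 in WT alone and 49 in TKO alone, beside 2968 listed in both. A locus without a peak in a list is listed at 0 there, which is not a measured absence. At a −log10 q of at least 5 the numbers were 4623 in WT alone and 3317 in TKO alone, so the balance turned with the limit.

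The tallest of the WT loci, 280657 bp from FAM240C at chr2:242183243-242183531, had 99 fragments in WT, none listed in D1240A, 113 in F1295A and none listed in TKO. A locus 1846834 bp from ZNF37A had 72 in WT, 60 in D1240A and 98 in F1295A. All 12 lists had a peak there, and that of TKO was left out with a shared block. Its place among the loci in WT alone thus comes from the filter. The others named lay nearest to LOC124901649 with 89, LOC124903767 with 74 and LOC105375116 with 58 fragments in WT, and these 3 had no peak in D1240A, F1295A or TKO. The tallest of the TKO loci, 80880 bp from DDIT4L, a gene that restrains growth signalling by mTOR, had 127 fragments in TKO with no peak in WT, D1240A or F1295A. Next were loci nearest to LOC124903391 with 74, ALG1L2 with 72, TUSC1 with 56 and CTNNA3, a catenin gene, with 49 fragments in TKO, the last pair 390906 bp and 824276 bp from the gene. WT and D1240A had no peak at these 4 loci, and F1295A had 31 fragments at that of TUSC1 and no peak at the other 3. Each of these is a short peak of at most 822 bp, and 1 list per condition gives no check on it.

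Loci in both lists carried the other marks far more often. An H3K36me2 peak overlapped 71.4% of them in WT and 62.0% in TKO, against 20.3% in WT and 16.2% in TKO of the loci in WT alone, and 24.4% in WT and 20.5% in TKO of the loci in TKO alone. H3K27ac overlapped 27.7% in WT and 29.4% in TKO of the loci in both lists, 4.64% in WT and 4.39% in TKO of those in WT alone, and 5.28% in WT and 4.93% in TKO of those in TKO alone. In the mutant lists, D1240A had H3K27me3 at 72.6% and F1295A at 70.7% of the loci in both lists, D1240A at 17.3% and F1295A at 17.0% of those in WT alone, and D1240A at 16.0% and F1295A at 14.2% of those in TKO alone. No peak in either mutant list was found at 16.9% of the loci in both lists, 72.6% of those in WT alone and 75.5% of those in TKO alone. A peak in all 12 lists lay at 12.4% of the loci in both lists. The loci in both lists were also longer, with a median of 536 bp in WT, against 316 bp for WT alone and 324 bp for TKO alone. Their median pileup in WT was 21, against 15 for WT alone and 14 for TKO alone. What part length and height have in the overlaps was not tested. Of the 18572 loci with no H3K36me2 or H3K27ac peak in WT or TKO, 13.7% were in both lists, and of the other 17217 it was 55.5%.

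The smaller cover in WT was spread over the chromosomes. It was below TKO on 19 of 22 autosomes and above it on chromosomes 14, 17 and 20. On chromosome 20, with 0.668 Mb in WT and 0.604 Mb in TKO, the ratio was 1.11, the highest of all, and this is the chromosome of RBBP8NL, BHLHE23 and CHRNA4. It was lowest on chromosome 8, with 0.437 Mb in WT and 0.613 Mb in TKO, a ratio of 0.712. The median log2 pileup ratio of the loci in both lists stayed between -0.06 and 0.06 on each chromosome.

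**Figure D5:**
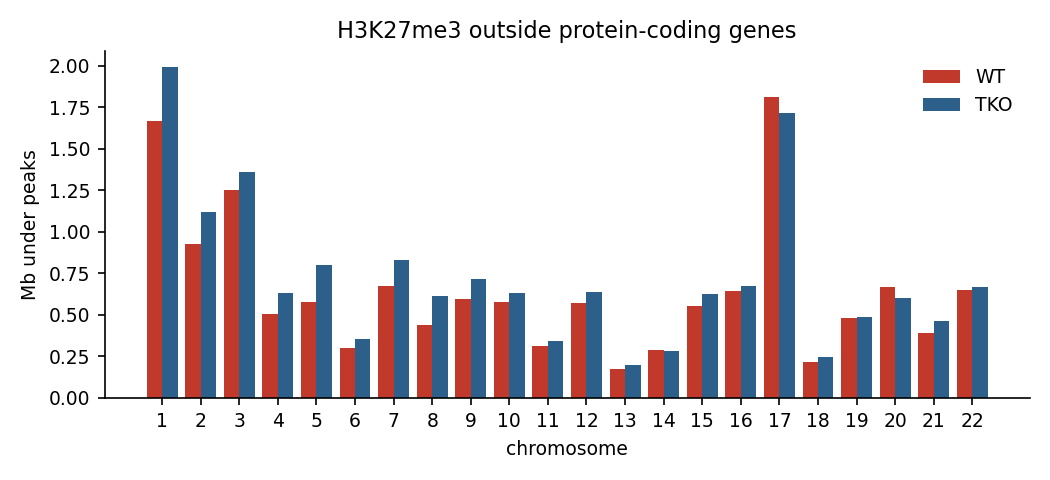
Megabases under H3K27me3 peaks outside protein-coding genes on each autosome in WT (red, left) and TKO (blue, right). WT is above TKO on chromosomes 14, 17 and 20 and below it on the other 19.

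Members of both lists lay far from genes. The median distance to a coding gene was 55.0 kb in WT and 59.3 kb in TKO, and 10.7% in WT and 9.61% in TKO lay within 5 kb. Loci in both lists were farther out, at a median of 77.8 kb, than those in WT alone at 37.8 kb and those in TKO alone at 48.2 kb. A long non-coding RNA gene was touched by 19.7% of the WT and 21.0% of the TKO peaks, and no annotated gene of any type by 74.0% of the WT and 73.0% of the TKO peaks. Of 1461 autosomal microRNA hairpins, 5 were touched in WT alone, 8 in TKO alone and 7 in both. MIR3670, a multi-copy hairpin, had a peak in TKO alone at 3 of its 4 touched copies, with pileups of 16, 22 and 21. Both touched copies of MIR4509, also multi-copy, had a peak in WT alone, with pileups of 18 and 16. The multi-copy MIR3689 was mixed. MIR3689A and MIR3689C had a peak in TKO alone, MIR3689D2 in WT alone and MIR3689B in both, at pileups from 12 to 15.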

How the data were processed

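The series holds 28 ChIPmentation samples, with 2 replicates per condition for each of 3 marks, and 4 inputs, which are not analysed here. Per the submitters' processing notes, the tools were Trimmomatic 0.36, FastQC 0.11.4, Bowtie2 2.4.5 and MACS2 2.2.7.1, with GRCh38. Per the file headers, the authors made each of the 12 lists in 1 run on both replicates, using paired ends, a q limit of 0.05, a single fragment per position, a constant background and no control. The deposited pileup counts the fragments at the summit and carries no depth scaling. The deposited fold enrichment equals the pileup plus 1 over a constant of each file, as checked from the values. The deposited −log10 q values are the peak caller's own. Kept fragments per list range from 31097592 to 73613753.

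The scaled pileup was computed with these kept fragments. Gene extents came from RefSeq (GRCh38 patch 14), which has 18973 autosomal protein-coding genes after 153 rows placed on separate scaffolds were dropped. Peaks were matched by an overlap of 1 bp, and a locus or domain was called at 1.5-fold. Poisson intervals at 95% cover counting error only. Named are the 8 domains with the largest excess of covered bases in each direction, the 5 longest, the 5 highest and 5 lowest loci in both lists with at least 30 fragments in one, the 5 tallest in each list alone, and up to 4 genes per gene list and direction. The members, gene lists and limits were chosen with earlier results of these data known. Alternatives changed the shared blocks, peak limit, gene body, overlap, scaling, fold, domain gap and gene distance. Work was done in Python 3.11.15 with pandas 2.3.3, numpy 2.4.6, SciPy 1.17.1 and, for drawing, matplotlib 3.10.9. The steps were tested on the WT H3K27me3 list set against a copy of itself with planted changes. No counting noise was added to that copy.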

Additional observations from a re-analysis of the deposited data

How the results depend on the processing

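No paired analysis was possible because each list pools both replicates of a condition, and for the same reason no replicate could be left out. With 1 list per condition, the depth and the authors' limit decide which weak peaks are listed. Leaving out peaks found in all 12 lists and asking for a scaled pileup of 5 in both lists were added after seeing the data. Causes of the changes below were not tested unless stated.

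Balances between WT and TKO turned as follows. At a −log10 q of at least 5, covered Mb in WT was 1.06 times that in TKO, loci in WT alone were 1.39 times those in TKO alone, and domains higher in WT were 1.64 times those lower, or 1.32 times with H3K36me2. At equal covered length the ratios were 1.08 for loci and 1.13 for domains. Counting only loci of 1 list with a −log10 q of at least 5 left 2498 in WT alone and 2258 in TKO alone, a ratio of 1.11. Domains without H3K36me2 kept a ratio above 1, at 26 with the −log10 q limit, 3.33 at equal covered length, 6 at a scaled pileup of 5, 8 with a gap of 1 kb and 1.003 with a gap of 10 kb. With H3K36me2 the ratio was 0.751 at equal covered length.

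Single domains that turned, as WT minus TKO covered bases, were, at the −log10 q limit, NR5A2 with 324, GNLY with 906, GATA3 with 239, EED with 1062 and 292, and OR6Y1 with 72. At equal covered length it was IRF8 with 299, and without the peaks of all 12 lists TPTE with 91. At a scaled pileup of 5 they were RBBP8NL with -536, NR5A2 with -1593, GNLY with 906, OR9K2 with -526, OR6Y1 with 1473 and ZNF532 with 347.

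With the shared blocks kept in, there were 39984 peaks over 58.5 Mb in WT and 43930 over 61.0 Mb in TKO, median lengths of 511 bp and 488 bp, matched shares of 70.9% and 63.3%, and 1151 and 1201 domains of at least 5 peaks. Matched loci were then 757 higher and 915 lower, and of loci in WT alone 19.2% lay under TKO H3K36me2 and 20.2% under D1240A H3K27me3, of those in TKO alone 23.8% and 19.1%. The −log10 q limit left 11803 peaks in WT and 10358 over 9.49 Mb in TKO, median lengths of 537 bp and 566 bp, matched shares of 60.8% and 68.0%, a median log2 pileup ratio of -0.035, 153 matched loci higher and 267 lower, and 4623 loci in WT alone and 3317 in TKO alone. Domains of at least 5 peaks were then 240 in WT and 206 in TKO, and domains called were 128 higher and 78 lower, of which 26 and 1 were without H3K36me2, and 77 lower ones had it. The shares under TKO H3K36me2 and D1240A H3K27me3 were 33.2% and 44.0% for WT alone, and 40.5% and 43.1% for TKO alone.

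Equal covered length gave a TKO median length of 433 bp, matched shares of 53.7% in WT and 55.4% in TKO, a median log2 ratio of -0.018, 39 domains lower without H3K36me2, 18.2% of WT alone loci under D1240A H3K27me3, and for TKO alone 23.5% under TKO H3K36me2 and 19.7% under D1240A H3K27me3. Without the peaks of all 12 lists, median lengths were 381 bp in WT and 375 bp in TKO, matched shares 52.4% and 44.4%, and the shares under TKO H3K36me2 and D1240A H3K27me3 were 17.6% and 18.6% for WT alone, and 21.2% and 16.8% for TKO alone. The common minimum gave a TKO median length of 394 bp and a matched share of 49.1% in TKO. Peaks that touch no gene of any type gave a matched share of 49.3% in TKO, and 15.0% of WT alone and 19.4% of TKO alone loci under TKO H3K36me2. Genes extended by 5 kb gave 57.5% of WT peaks matched, and an overlap of 50% gave 52.6% in WT and 44.8% in TKO. The unscaled pileup gave a median log2 ratio of 0.093 with 921 higher and 342 lower, the authors' fold enrichment gave 0.021, and 2-fold left 33 higher and 53 lower. A gap of 1 kb left 242 domains of at least 5 peaks in WT and 271 in TKO, and called 45 higher and 77 lower, 16 and 2 without and 29 and 75 with H3K36me2. A gap of 10 kb called 654 higher and 1168 lower, 323 and 322 without and 331 and 846 with H3K36me2. At a scaled pileup of 5, 6 and 1 were called without and 45 and 88 with H3K36me2.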
